A study of Homo sapiens with 6 samples.

Results

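The genes described here encode the enzymes that write and remove DNA methylation, with an adaptor and a reader of the mark. They are DNMT1, DNMT3A, DNMT3B, DNMT3L, TET1, TET2, TET3, UHRF1 and MBD2, chosen with earlier results of these data known. All gene spots of the arrays that carried 1 of these names were taken, whatever their values. These spots gave 9 of the 25940 gene names and 19 of the 34127 gene probes on the arrays. RNA had been extracted from sorted cells of 2 human breast cancer lines, 3 sorts each, and hybridized to 1-colour Agilent arrays. Both lines descend from T47Dco, an estrogen receptor-positive cell line, by way of tumors grown in NSG mice. pLUM cells came from an E (estradiol) tumor, were purified as CLD3+CD49f- and received 1 nM E for 72 h. pLB cells came from a tumor of an E plus P (progesterone) treated mouse, were purified as CLD3-CD49f+ and were kept under EWD, that is, with E withdrawn. Each line is a single derivation, line and hormone coincide on all 6 arrays, and their parts in a difference cannot be told apart. The sources used here do not state which CK5 fraction of each sort was hybridized.

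DNA methylation in human cells is the addition of a methyl group to cytosine, mostly where a guanine follows (CpG). DNMT3A and DNMT3B place it on unmethylated DNA, whereas DNMT1 copies it to the new strand behind the replication fork, guided by UHRF1, which binds hemimethylated CpG. TET1, TET2 and TET3 oxidize the methyl group, a step from which it can be diluted by replication or replaced by base excision repair. MBD2 binds methylated CpG and recruits the NuRD complex. None of these enzymes' activities and no methylation was measured on the arrays, which report transcript levels only.

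The signal of a probe is given as log2 of its intensity over the 75th percentile of its array, and a difference is pLB minus pLUM on that scale. Probes are numbered from the 5' end of their gene. Probes were tested with limma if they were well above background, by the scanner's flag, on at least 3 of 6 arrays, and were called at a 2-fold difference with a Benjamini-Hochberg adjusted p under 0.05. Slide 1 carried all pLUM arrays with pLB replicate 1, and slide 2 carried the remaining pLB arrays. The 75th percentile of intensity was 449 to 869, and r across tested probes was 0.972 to 0.991 between arrays of a line. Of the 8 luminal markers 7 were lower in pLB and of the 7 basal markers all were higher, as the names of the lines have it. Among all tested genes 23% were lower and 22.7% higher. The markers include CLDN3 and ITGA6, which encode the antigens CLD3 and CD49f of the purification. They also include KRT5, which encodes the CK5 stained for the sort, so that these are no independent check of the lines. Of the 8 stromal, endothelial and blood markers 3 were well above background on no array, and the summed level of all 8, on the linear scale relative to the 75th percentile, was 1.01 to 1.12 in pLUM and 0.658 to 1.24 in pLB, with 2 of the 4 tested called higher.

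The probes on which the results turn are printed here because several genes gave unequal values along their length. Sequences are those in the files, 5' to 3', whole for TET1 probe 1 and TET2 probe 2 and otherwise the first 30 bases. Capitals mark an ATG in TET1 probe 1, from which an open reading frame runs to the end of the probe.
DNMT3A probe 1: caaaaagtcttccttccaagcgtgtatgat
DNMT3A probe 2: tgtgtaagggacatgggggcaaactgaggt
DNMT3A probe 3: agggagacgagaacaccacacaagacattt
DNMT3B probe 2: aactgtgccttgtttcaacagtttttgcta
TET1 probe 1: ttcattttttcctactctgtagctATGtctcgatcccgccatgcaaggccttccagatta
TET2 probe 2: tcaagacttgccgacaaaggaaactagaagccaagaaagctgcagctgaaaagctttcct
TET2 probe 4: ttgctaatataggaatatcaggttgactat
On hg19, DNMT3A probe 1, listed for NM_175630, lies at chr2:25504394-25504453, and probes 2 and 3, listed for NM_175629, at chr2:25457095-25457154 and chr2:25456415-25456474, all on the minus strand. DNMT3B probe 2 (NM_175850) lies at chr20:31397064-31397123 on the plus strand. TET1 probe 1 (NM_030625) lies at chr10:70332072-70332131 and TET2 probes 2 and 4 (NM_001127208) at chr4:106193920-106193979 and chr4:106200570-106200629, on the plus strand. No annotation of hg19 was used here, so that exon and UTR positions are not given.

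pLB cells carried more DNMT3A and less DNMT3B, TET1 and TET2 signal than pLUM cells, the last on 1 of 4 TET2 probes. Of the 19 probes, 14 passed the filter, which left DNMT3L and TET3 untested. Among the 14, 3 were called higher in pLB, all of them DNMT3A probes, 3 were called lower, 1 each of DNMT3B, TET1 and TET2, and 8 were not called. The 6 called probes are 42.9% of those tested, beside 45.6% of all 23106 tested probes called in either direction, 21.9% higher and 23.7% lower. The genes as a group were thus called about as often as the rest of the array. The median difference was 0.37 over the 14 probes and -0.01 over all tested probes. For 9 of the 14 the 2 lines did not overlap, beside 68.2% of all tested probes.

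**Figure D1:**
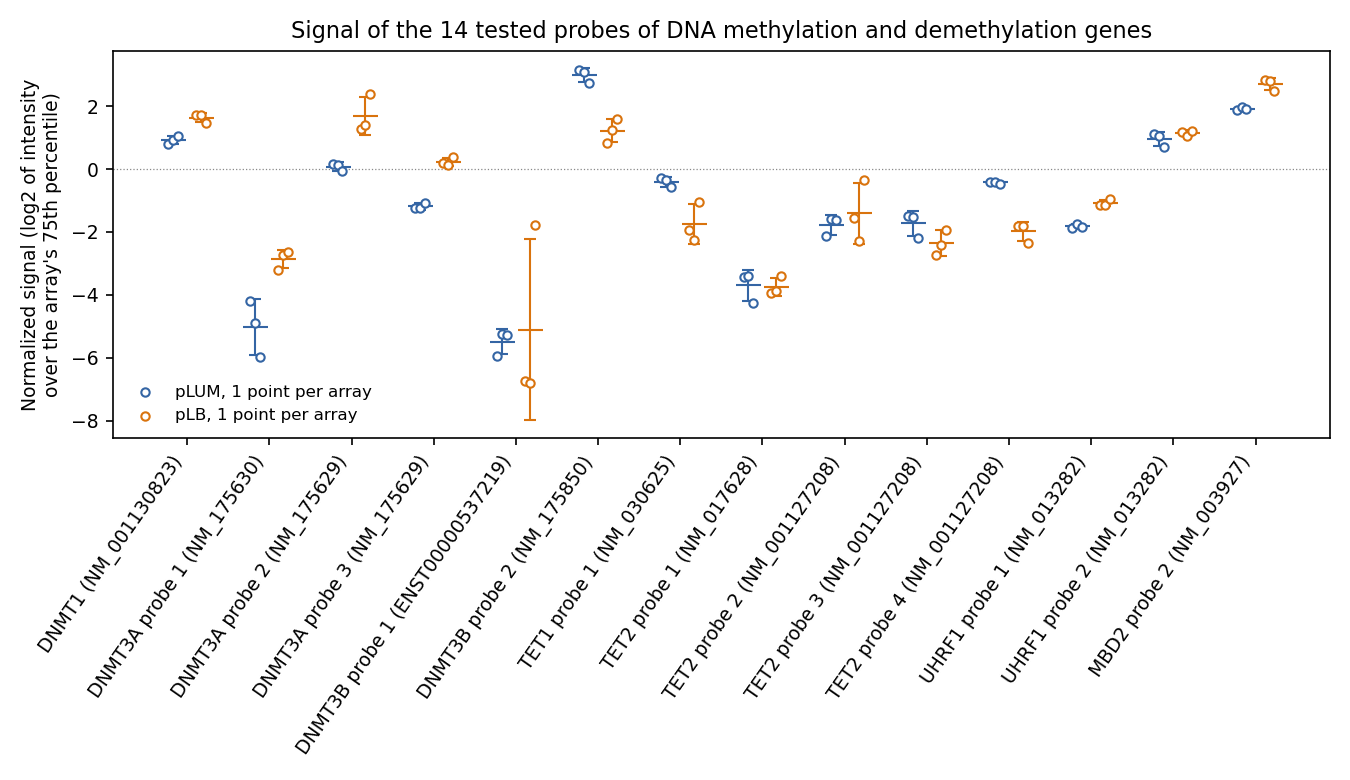
Normalized signal (log2 of intensity over the array's 75th percentile, y axis) of the 14 tested probes, with 1 point per array, pLUM in blue and pLB in orange, and bars for the mean and SD of 3 arrays. The 3 DNMT3A probes sit higher in pLB and DNMT3B probe 2, TET1 probe 1 and TET2 probe 4 lower, without overlap, whereas pLB replicate 3 stands far above the other pLB arrays on DNMT3B probe 1.

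DNMT3A, a de novo methyltransferase, was higher in pLB on each of its probes. Values are given in the order of replicates 1, 2 and 3. Probe 3 read -1.24, -1.25 and -1.07 in pLUM and 0.18, 0.13 and 0.37 in pLB. The lines were well apart and the arrays of each line close together. The difference was 1.42 (SE 0.16, 95% interval 1.04 to 1.79), or 2.67-fold (adjusted p = 0.000223, limma). Probe 2 read 0.16, 0.14 and -0.07 in pLUM and 1.26, 1.39 and 2.37 in pLB, where replicate 3 was the highest array. Its difference was 1.60 (SE 0.30), or 3.02-fold (adjusted p = 0.00289, limma), and 1.25 without pLB replicate 3. Probe 1, which lies 47.3 kb 5' of probe 2 and is listed for the transcript NM_175630, was near background and 1 of the 3 pLUM arrays was not well above background. It read -4.19, -4.90 and -5.97 in pLUM and -3.20, -2.74 and -2.65 in pLB, a difference of 2.16 (SE 0.43), or 4.46-fold (adjusted p = 0.00362, limma). The size of this last difference depended on the background correction, since with normexp it was 0.24 (adjusted p = 0.63, limma) and no longer called. The mean over the 3 probes gave 3.30-fold higher in pLB (adjusted p = 0.000526, limma).

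DNMT3B, the other de novo methyltransferase, was lower in pLB on the probe that was well measured. Probe 2 read 3.14, 3.08 and 2.74 in pLUM and 0.84, 1.25 and 1.59 in pLB. All pLUM arrays were above all pLB arrays. The difference was -1.76 (SE 0.23, 95% interval -2.31 to -1.21), or 3.39-fold lower (adjusted p = 0.000492, limma). Probe 1, listed for ENST00000537219 at chr20:31384813-31384872, had signal well above background in pLUM on 2 arrays and in pLB on 1. It read -5.96, -5.23 and -5.27 in pLUM and -6.74, -6.81 and -1.78 in pLB, so that its value rests on pLB replicate 3. The difference was 0.38 (SE 1.26, adjusted p = 0.808, limma), and without pLB replicate 3 it was -1.29 (adjusted p = 0.0048, limma), called lower. The mean of both probes, which includes this dim one, was not called (-0.69, adjusted p = 0.42, limma).

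DNMT3A and DNMT3B therefore moved in opposite directions, and the change of DNMT3A minus that of DNMT3B probe 2 was 3.36 (SE 0.20, 95% interval 2.88 to 3.84) with DNMT3A probe 2 and 3.18 (SE 0.24, 95% interval 2.62 to 3.73) with probe 3. Because both genes are read on the same array, this contrast does not depend on the scaling between arrays. The genes were compared with their values known. DNMT3L, which encodes a catalytically inactive cofactor of both enzymes and is known mainly from germ cells, was well above background on none of the 6 arrays (NM_013369, chr21:45666270-45666329), and no fold is given.

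DNMT1, the maintenance methyltransferase, was moderately higher in pLB. Its probe (NM_001130823, chr19:10244023-10244082) read 0.81, 0.92 and 1.05 in pLUM and 1.73, 1.71 and 1.48 in pLB. The lines did not overlap. The difference was 0.71 (SE 0.16), or 1.64-fold (adjusted p = 0.00715, limma), which is under the 2-fold threshold. UHRF1, the adaptor that brings DNMT1 to newly replicated DNA, gave unequal values on its probes, which lie 1.17 kb apart. Probe 1 (NM_013282, chr19:4960895-4960954) read -1.89, -1.73 and -1.85 in pLUM and -1.13, -1.15 and -0.97 in pLB, a difference of 0.74 (SE 0.15), or 1.67-fold (adjusted p = 0.00441, limma), which with normexp was 0.42 (adjusted p = 0.131, limma). Probe 2 (chr19:4962065-4962124) read 1.12, 1.04 and 0.70 in pLUM and 1.17, 1.04 and 1.20 in pLB, and its lines overlapped. Here the difference was 0.19 (95% interval -0.23 to 0.60, adjusted p = 0.388, limma), so that an increase of up to 0.60 remains within the interval. MBD2, the reader, was also higher by less than 2-fold. Its probe for NM_003927 (chr18:51681393-51681452) read 1.89, 1.97 and 1.90 in pLUM and 2.84, 2.79 and 2.47 in pLB, or 1.72-fold higher (difference 0.78, SE 0.17, adjusted p = 0.0052, limma). The probe for the shorter listed transcript NM_015832, at chr18:51729113-51729172, was well above background on pLB replicate 2 only and was not tested. With no fold threshold, DNMT1, UHRF1 probe 1 and MBD2 joined the called probes, giving 6 higher and 3 lower of 14, beside 31.1% higher and 31.6% lower (62.7% in all) among all tested probes.

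TET1, a methylcytosine dioxygenase, was lower in pLB at its 5' end. Probe 1 read -0.28, -0.35 and -0.58 in pLUM and -1.95, -2.25 and -1.03 in pLB. The lines did not overlap, with pLB replicate 3 the nearest to pLUM. The difference was -1.34 (SE 0.32, 95% interval -2.09 to -0.60), or 2.53-fold lower (adjusted p = 0.00782, limma). With spike-in scaling it was -1.07 (adjusted p = 0.0504, limma), not called. That fit gave all member probes the same SE, 0.47, so that its p-value does not reflect the spread of this probe. TET1 probe 2 is listed for the same transcript, NM_030625, at chr10:70453516-70453575, 121 kb 3' of probe 1. It was well above background on no pLUM array and on pLB replicate 1 only, and was not tested, so that the decrease rests on the probe with the ATG.

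TET2, a further dioxygenase of the family, was lower in pLB on its most 3' probe and on no other. Probe 4 read -0.40, -0.41 and -0.48 in pLUM and -1.81, -1.80 and -2.34 in pLB, a difference of -1.55 (SE 0.20, 95% interval -2.02 to -1.09), or 2.94-fold lower (adjusted p = 0.000379, limma). The pLUM arrays were almost equal and all above pLB. Probe 3, 0.952 kb 5' of it at chr4:106199618-106199677, read -1.49, -1.52 and -2.18 in pLUM and -2.75, -2.41 and -1.93 in pLB. The lines overlapped, and the difference was -0.63 (95% interval -1.30 to 0.04, adjusted p = 0.0885, limma). Probe 2, which was printed in full, read -2.13, -1.58 and -1.61 in pLUM and -1.56, -2.29 and -0.36 in pLB. pLB arrays lay on both sides of the pLUM arrays, with replicate 3 the highest, and the difference was 0.37 (95% interval -0.72 to 1.46, adjusted p = 0.513, limma). Probe 1, for the other listed transcript NM_017628 at chr4:106163842-106163901, read -3.42, -3.41 and -4.27 in pLUM and -3.94, -3.89 and -3.41 in pLB, a difference of -0.05 (95% interval -0.72 to 0.62, adjusted p = 0.895, limma). For the pair furthest apart in value, chosen after the values were seen, the change of probe 2 minus that of probe 4 was 1.92 (SE 0.58, 95% interval 0.55 to 3.29). The mean of the 4 probes was 1.38-fold lower in pLB (adjusted p = 0.0921, limma) and was not called. Mixed calls within a gene were common on these arrays, since 1643 of 4286 genes with several tested probes, or 38.3%, had some probes called and some not, and 85 had probes called in opposite directions.

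TET3, the remaining dioxygenase, was not well above background on any array on either of its probes, both listed for NM_144993 (chr2:74328560-74328619 and chr2:74329639-74329698). Its transcript was therefore not detectable at this signal in either line, and no comparison was made.

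**Figure D2:**
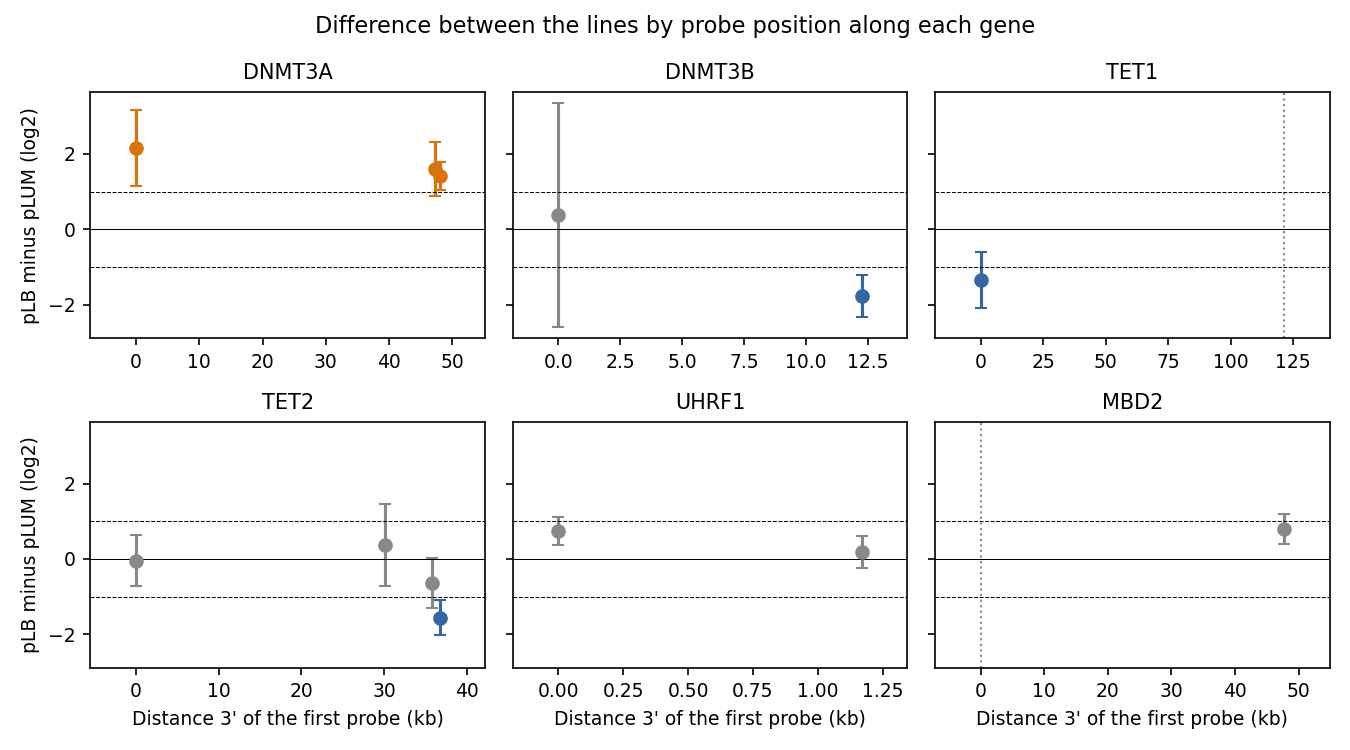
Fitted difference (pLB minus pLUM, log2, y axis) with its 95% interval against the distance in kb 3' of the first probe of the gene (x axis), for the 6 genes with several probes of which at least 1 was tested. Orange and blue points were called higher and lower, grey points were not called, dashed lines mark 2-fold, and dotted vertical lines mark probes not tested. The DNMT3A probes, up to 48.0 kb apart, all lie above the 2-fold line, whereas the TET2 probes run from 0.37 to -1.55.

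Leaving out each array in turn and fitting slide as a block left the 6 called probes called in the same direction. The slide block compares only the arrays of slide 1, where pLB has 1 array, and gave 1.37 for DNMT3A probe 3, -2.15 for DNMT3B probe 2, -1.55 for TET1 probe 1 and -1.39 for TET2 probe 4. Nothing in the labels tells whether the sorts came from separate cultures, so that the p-values measure the spread between sorts of 1 line, which may be technical.

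**Figure D3:**
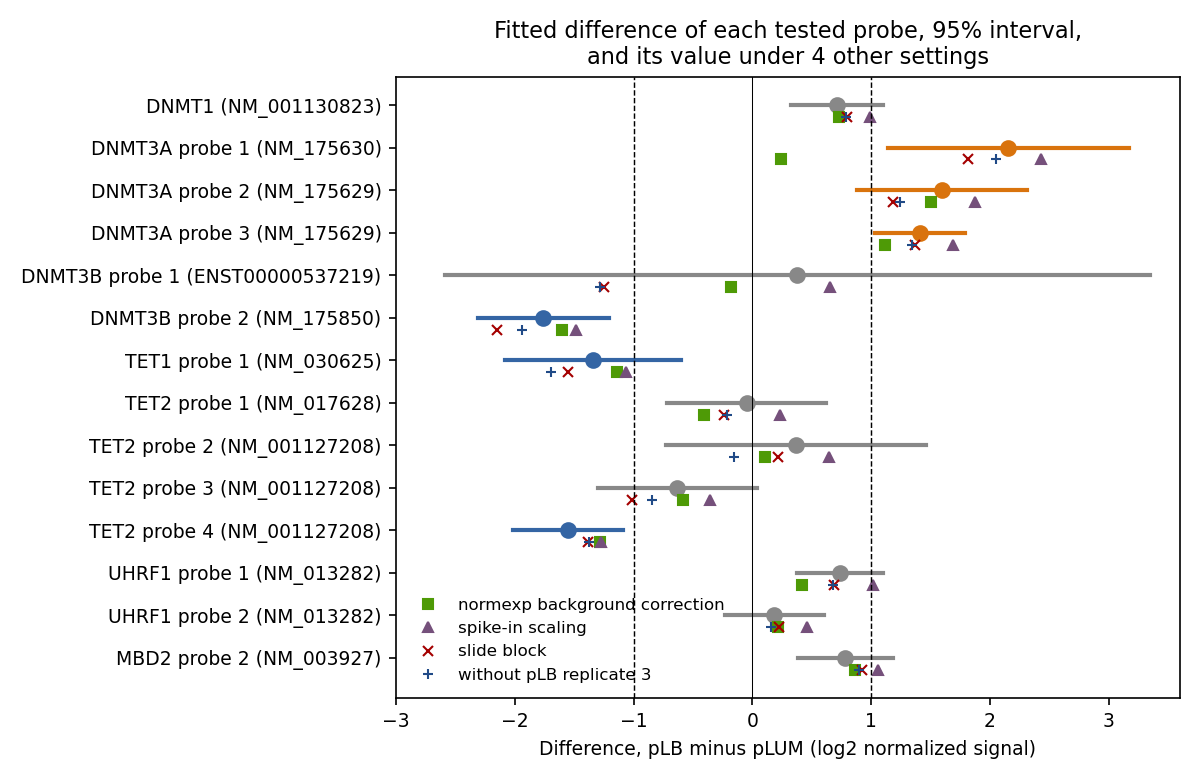
Fitted difference of each tested probe (x axis, log2, pLB minus pLUM) with its 95% interval, in orange where called higher, blue where called lower and grey where not called, dashed lines at 2-fold. Smaller symbols under each point give the difference with normexp background correction, spike-in scaling, a slide block and without pLB replicate 3. DNMT3A probe 1 falls to 0.24 with normexp, and DNMT3B probe 1 spans both signs.

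The promoters of the genes were read from RefSeq (GRCh38.p14), each window holding 250 bases before and 50 after a transcription start, for 8 of the 9 genes and 19 windows. Their CpG content varied. The DNMT3A windows held 18 to 46 CpG, those of UHRF1 36 to 46 and TET3 33 to 45, that of MBD2 32 and of DNMT1 30, beside a median of 14 over 35116 windows. The TET2 windows held 13 and 35, and those of TET1 6 to 11. The only DNMT3B window read, chr20:32779602-32779901, held 3, and any other start of that gene was not read. As DNMT1 and UHRF1 act at replication, the E2F motif of S-phase genes was searched as TTTGGCGC, TTTCCCGC, TTTCGCGC and TTTGCCGC on both strands. It was present in 3 of the 19 windows, namely 2 of 3 UHRF1 windows and that of DNMT1, and in 3.31% of all windows. Each form searched contains a CpG, and the windows with a match held 30 to 40 CpG beside the median of 14. The share over all windows is therefore not a like comparison. The palindromic estrogen response element, searched likewise because pLUM cells had received E, was in none of the 19 and in 0.06% of all windows. The most upstream UHRF1 start is preceded by chr19:4909251-4909500 (GRCh38.p14, plus strand), shown for its match, in capitals, 14 bases before the start and on the reverse strand.
UHRF1 promoter: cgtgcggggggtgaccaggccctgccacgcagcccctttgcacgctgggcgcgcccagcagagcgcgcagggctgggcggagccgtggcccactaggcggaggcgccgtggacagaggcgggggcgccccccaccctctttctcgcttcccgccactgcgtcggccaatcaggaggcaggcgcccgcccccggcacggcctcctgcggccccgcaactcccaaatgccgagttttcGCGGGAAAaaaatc
A match is a description of letters and says nothing of binding in these cells.

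S-phase genes, whose transcripts accompany replication as do those of DNMT1 and UHRF1, gave a mixed picture. Of 20 listed and tested, 8 were called higher and 1 lower in pLB, with a median difference of 0.42, beside 22.7% higher and 23% lower and a median of 0.04 over all 17671 tested genes, each represented by its brightest probe. MCM5, MCM2 and CCNA2, which encode replicative helicase subunits and cyclin A, were 5.16-fold, 3.75-fold and 2.73-fold higher (adjusted p = 3.07e-05, 0.00229 and 0.00077, limma). CCNA2 was no longer called with normexp. MKI67, which encodes the Ki-67 antigen, was 2.24-fold higher (adjusted p = 0.00536, limma), but its call ended with the slide block (0.65), with normexp (0.84) and without pLB replicate 3 (0.96), and of its other probes 1 was 3.21-fold higher and 1, near background, stood at 0.01. PCNA, the sliding clamp on which DNMT1 docks, read 0.94 in pLUM and 1.08 in pLB on average (adjusted p = 0.621, limma), and TYMS, thymidylate synthase, 2.90 and 2.79 (adjusted p = 0.682, limma). GMNN, a replication licensing inhibitor, was 2.15-fold lower (adjusted p = 0.00169, limma), and its call ended with the slide block (-0.96), normexp, spike-in scaling and without pLUM replicate 2. The summed linear level of the list was 101 to 108 in pLUM and 107 to 125 in pLB, and the part of proliferation in the differences of DNMT1 and UHRF1 was not tested.

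Partners of the maintenance machinery gave few calls. Of 8 listed, 7 were tested, none was called higher and 2 were lower, with a median of -0.63, beside 22.7% higher and 23% lower among all tested genes. USP7, a deubiquitinase that binds DNMT1, was 2.88-fold lower (adjusted p = 0.000369, limma), although not called with normexp. CDCA7, which recruits the remodeler HELLS, was 2.03-fold lower (adjusted p = 0.019, limma), close to the threshold, lost its call under 6 of 18 other settings and stood at -1.64 with the slide block. Both were well above background on 2 of 3 pLB arrays.

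Genes listed as readers of methylated CpG or as their relatives went both ways, 2 of 7 higher and 2 lower, with a median of -0.60. Among all tested genes 22.7% were higher and 23% lower. Among those higher, MBD3, a NuRD subunit listed as a relative of MBD2 and not as a reader, was 2.27-fold higher (adjusted p = 0.000844, limma). MBD4, a thymine glycosylase that binds methylated CpG, was 3.48-fold lower (adjusted p = 0.000135, limma). ZBTB38 had no pLB array well above background. Its fitted difference was -2.16 (adjusted p = 0.000846, limma), a p-value that does not apply to the bound. The bound, set by the lowest signal above background, was 1.76-fold lower and thus under 2-fold. ZBTB38 was not called with normexp or with dim signals set to that floor (-0.81, adjusted p = 0.0754, limma).

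Of the 11 NuRD subunits, which MBD2 brings to methylated DNA, 2 were higher and 1 lower, with a median of 0.18. The shares among all tested genes were 22.7% higher and 23% lower. GATAD2A was 2.94-fold higher (adjusted p = 0.000172, limma), but its second probe was at -0.09 and not called. HDAC2, a histone deacetylase, was 2.18-fold higher (adjusted p = 0.00201, limma), and lost its call with the slide block (0.90) and without pLB replicate 3 (0.99). RBBP7, a histone chaperone, was 3.67-fold lower (adjusted p = 0.000195, limma).

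Genes that act after TET oxidation were tested in 14 of 17 cases, with 3 higher, 2 lower and a median of 0.46. The shares among all tested genes were 22.7% higher and 23% lower. APOBEC3C, a cytidine deaminase of a family of close paralogs, was well above background on no pLUM array. Its fitted difference was 5.13 (adjusted p = 1.17e-06, limma), and the bound set by the lowest signal above background was 8.38-fold higher in pLB. With dim signals set to that floor the difference was 3.07 (adjusted p = 5.28e-06, limma). GADD45A, a stress protein linked to demethylation, was 3.68-fold higher (adjusted p = 0.000444, limma) and UNG, a uracil glycosylase, 2.73-fold higher (adjusted p = 0.000131, limma). NEIL1, a glycosylase of oxidized bases, was 10.3-fold lower (adjusted p = 8.49e-06, limma), and GADD45G 2.51-fold lower (adjusted p = 0.000717, limma). The other GADD45G probe was 1.96-fold lower and under the threshold, and spike-in scaling ended the call. With normexp, APOBEC3C stood at 1.00 and was not called, so that its bound depends on the background correction. TDG, the glycosylase that removes TET oxidation products, was 1.93-fold lower (adjusted p = 0.00293, limma), named although under the threshold because the pathway runs through it. This is the brighter of its 2 tested probes, and its values on the other and under other settings are not given. Of the list's other genes with an adjusted p under 0.05 but under 2-fold, PARP1, XRCC1 and APEX1 were higher (1.93-fold, 1.78-fold and 1.83-fold, adjusted p = 0.00413, 0.0031 and 0.0155, limma). GADD45B was 1.98-fold lower (adjusted p = 0.00665, limma).

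Genes of methyl donor supply were tested in 12 of 14 cases, and none was higher and 2 were lower, beside the same 22.7% and 23% among all tested genes. GNMT, which consumes S-adenosylmethionine, was well above background on no pLB array. Its fitted difference was -5.57 (adjusted p = 8.04e-05, limma), and the bound was 23.5-fold lower. That bound depends on the background correction, since with normexp the fitted difference of GNMT was -2.68 and still called. MAT2A, which makes S-adenosylmethionine, was 2.22-fold lower on its brighter probe (adjusted p = 0.000471, limma) and stood at 0.64 on the other, which was not called (adjusted p = 0.0692, limma). Spike-in scaling ended the call of MAT2A. Of the 12 genes of oxoglutarate metabolism and TET partners, 1 was higher and 4 were lower, with a median of -0.34, again beside 22.7% and 23%. CXXC4 and CXXC5, CXXC-domain proteins that bind TET2, were 35.4-fold and 2.94-fold lower (adjusted p = 1.44e-06 and 0.00036, limma), CXXC4 by -4.09 in place of -5.15 on the log2 scale with normexp, and OGT, a glycosyltransferase that associates with TET proteins, was 3.18-fold lower (adjusted p = 0.000175, limma). SDHB, a subunit of succinate dehydrogenase, was 2.24-fold higher (adjusted p = 0.0482, limma), a call that 12 of 19 other settings ended.

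Of 18 listed germ-cell genes whose promoters are often methylated in somatic cells, 11 did not pass the filter. Among all 25940 gene names, 17671 passed it. Of the 7 tested, 3 were higher in pLB and none lower, with a median of 0.58, beside 22.7% higher and 23% lower among all tested genes. HORMAD1 was 2.90-fold higher (adjusted p = 0.011, limma), on a second probe 3.47-fold (adjusted p = 0.000752, limma), but the call of the first ended with the slide block (0.86) and with the methods' t-test after Benjamini-Hochberg adjustment. MAGEA1 was 2.20-fold and TUBA3C 2.19-fold higher (adjusted p = 0.00224 and 0.00208, limma). TUBA3C was not called with normexp. Both belong to families of near-identical genes whose transcripts may share a probe, and their values are uncertain for that reason.

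**Figure D4:**
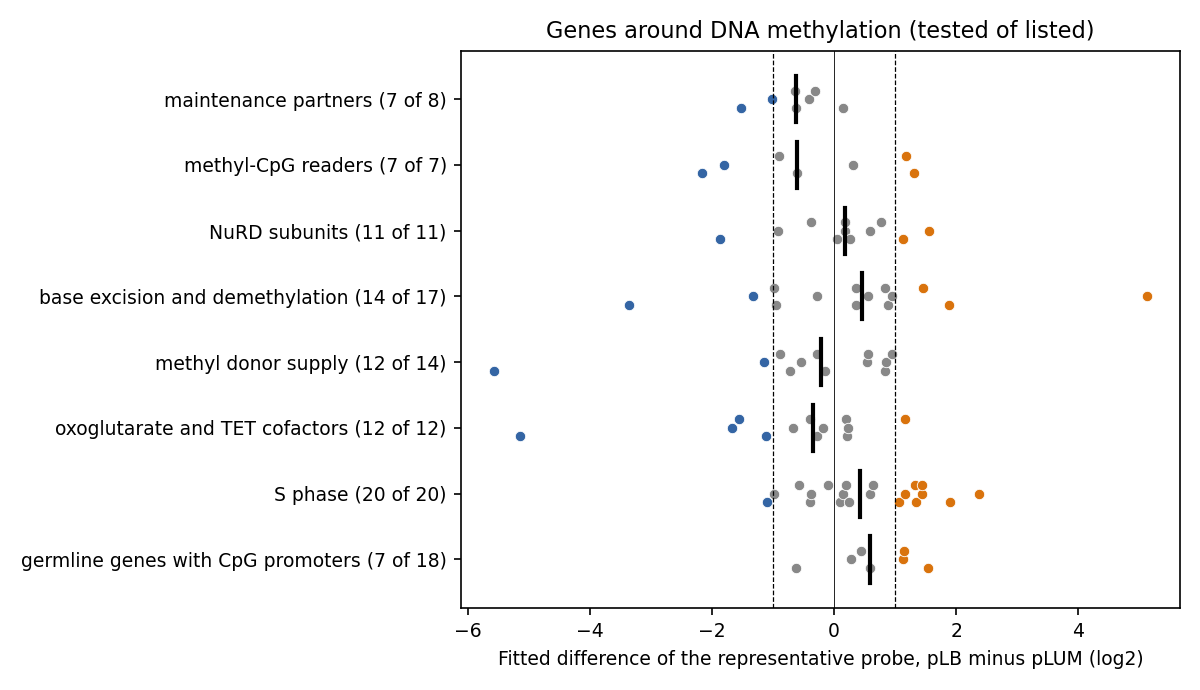
Fitted difference (x axis, log2, pLB minus pLUM) of the brightest tested probe of each gene in 8 lists, in orange where called higher, blue where called lower and grey where not called, with a black bar at the list's median and dashed lines at 2-fold. Most genes lie within 2-fold, GNMT and CXXC4 are far to the left and APOBEC3C far to the right, the values of GNMT and APOBEC3C being fitted to a line without signal above background.

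Across the 6 arrays, the genes with a symbol whose signals followed those of each member most closely were WDR53 for DNMT3B (Pearson's r = 0.99992), POLR3B and IMPDH2 for DNMT1 (0.99982 and 0.99921), MTUS1 and NAB2 for DNMT3A (0.999 and 0.998), TMEM200C and FSIP2 for TET1 (both 0.997), and CDC40 and FOXA1 for TET2 (0.99963 and 0.99948). UHRF1 was followed by CNIH3 and KIAA1217 (0.986 and 0.982). These values are a description of 6 arrays that fall into 2 lines, and r above 0.9 was reached by 134 of 17665 genes for UHRF1 and by 2465 to 4271 for the others.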

How the data were processed

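RNA of FACS-sorted pLUM cells (3 replicates) and pLB cells (3 replicates) was measured on 1-colour Agilent arrays. The authors deposited, per array, the scanner output as Agilent Feature Extraction 10.10.1.1 wrote it, with an intensity per spot corrected for background, with flags for outliers and for signal well above background. Positions are those of the files (hg19).

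Each deposited intensity was divided by the 75th percentile of its array and taken as log2. Control spots were dropped, as were the 296 to 387 spots per array with an outlier flag, and replicate spots were averaged by probe. All 23106 probes with signal well above background on 3 or more of the arrays were fitted together with lmFit and eBayes of limma 3.58.1 (R 4.3.3), and p-values were adjusted over them. The fit was tested on simulated data. A gene of a list is represented by its tested probe with the highest mean. A line without any array well above background gives a lower bound of the fold, set against the lowest signal well above background. The p-value of such a gene is that of its fitted difference. Precision is limited by the number of arrays. The smallest two-sided p of an exact permutation test is 0.1 for 3 against 3.

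The genes and lists were chosen with earlier results of these data known. Named are all 9 genes, up to 3 called genes in each direction of a list, PCNA, TYMS and MKI67, and the 2 genes closest to DNMT1, UHRF1 and each called gene. TDG was added after its values were seen, as were PARP1, XRCC1, APEX1 and GADD45B beside it. For 2 genes that the rule names, values are not reported here. Alternatives were other background corrections, scalings, filters, tests, probe rules and blocks, and each array left out. The E plus P treated T47Dco cells were not analysed here.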

Additional observations from a re-analysis of the deposited data

How the results depend on the processing

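The 14 probes were refitted under up to 19 other settings, in 264 fits. In 250 of them direction and call stayed as reported, and 6 of the 14 probes never changed. No probe was called in the direction opposite to the reported call. Calls were lost by DNMT3A probe 1 with normexp (0.24) and TET1 probe 1 with spike-in scaling (-1.07). They were gained by DNMT1, UHRF1 probe 1 and MBD2 without the fold threshold, and by DNMT3B probe 1 without pLB replicate 3. Signs turned only for differences not called as reported. DNMT3B probe 1 was -0.18 with normexp, -1.25 with the slide block and, with 1 array left out, -1.29 (without pLB replicate 3) to 1.23. TET2 probe 1 was 0.23 with spike-in scaling and -0.33 to 0.10 with 1 array left out, TET2 probe 2 was -0.15 (without pLB replicate 3) to 0.81 with 1 array left out, and TYMS was 0.17 with spike-in scaling, 0.11 with the slide block and 0.11 without pLB replicate 3. The cause was not tested.

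With no fold threshold, 6 member probes and 29 list genes were higher and 24 list genes lower, beside 3, 19 and 14. Normexp called 3004 probes of the array higher, beside 5054. Spike-in scaling shifted the median of all probes by 0.28 and called 9 list genes lower and 25 higher. It raised the share of called probes that were higher from 48.0% to 60.0%. With it DNMT1, UHRF1 probe 1 and MBD2 stood at 0.99, 1.02 and 1.06 (adjusted p = 0.0713, 0.0629 and 0.0517, limma). This fit gave all member probes and named list genes the same SE, 0.47. Its p-values and the calls it ended therefore do not reflect the spread of each probe. With an array left out, 3 member probes were higher and 3 to 4 lower, and 18 to 22 list genes were higher and 12 to 17 lower. Over all probes these fits called 4994 to 5122 higher and 5107 to 6160 lower. The methods' t-test called 4931 higher and 5200 lower unadjusted and 4759 and 4862 after Benjamini-Hochberg, with 3 and 3 member probes each time.

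The replicate numbers did not pair the samples, since the deviations of same-numbered arrays correlated at -0.27, -0.09 and -0.22. With the replicate block 3 member probes were higher and 3 lower, and 4983 and 5384 of all probes, so that it ended no call of a member. Of 565 fits of the 30 list genes named by rule, 37 ended a call and 3, all of TYMS, turned the sign. Dim signals limit DNMT3L, TET3, DNMT3A probe 1 and DNMT3B probe 1.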
